A study of Rattus norvegicus with 48 samples.

Results

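Liver transcripts at 48 h were set against those at 24 h in rats that had received RDX at 3 mg/kg. RDX is a nitramine explosive that acts on the nervous system at high doses. The comparison rests on 6 of the series' 48 arrays, chosen by the tissue, dose and time in their labels: 3 liver arrays from 24 h and 3 from 48 h. All animals were male Sprague-Dawley rats dosed once by mouth with pure RDX in a gel capsule and kept with free access to food under equal hours of light and dark. The doses, 3 and 18 mg/kg, were set so as not to cause seizures. No genotype or second agent distinguished the groups, and the labels give no vehicle arm at 24 h or 48 h. Both groups had therefore received the same dose and differed by the time since dosing. The labels do not say at what clock time tissue was taken, how old the animals were, or whether replicate arrays stand for separate animals, so p-values measure only the spread between arrays. 4 further groups are used beside them: liver at 24 h and 48 h after 18 mg/kg, and brain cortex at the same times after 3 mg/kg, with 3 arrays each.

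The adult liver is a tissue of mostly resting hepatocytes, with resident macrophages (Kupffer cells), sinusoidal endothelial cells, stellate cells and bile duct cells between them. Few of its cells divide at any moment, and the transcripts of mitosis, from the cyclin B genes to the spindle checkpoint and the cytokinesis machinery, are made in the G2 and M phases by cells that do. Liver transcripts for drug metabolism, fat metabolism and the circadian clock also move with feeding and with the hour of the day. In whole tissue, fewer cells of a type and less RNA per cell cannot be told apart.

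The values are RMA log2 expression values of 31042 probe sets, which stood for 14217 named genes. The tissue label was borne out by hepatocyte markers: 9 of 10 were measured, and their lowest value on any of the 6 arrays was that of Hnf4a, a hepatocyte transcription factor, at 11.91, while Alb, serum albumin, lay between 14.29 and 14.35. Replicate 2 of the 24 h group stood apart, with an SD over its log2 values of 1.86 against 2.0 to 2.08 in the other 5 arrays, and a mean correlation with them of 0.960 against 0.979 to 0.981. The log2 gap between 3' and 5' actin control probe sets, which grows as RNA degrades, was 2.97, 2.76 and 3.35 at 24 h and 3.25, 3.36 and 2.84 at 48 h, so the groups overlapped. The same gap for GAPDH was 2.58, 3.79 and 2.87 at 24 h and 2.33, 3.17 and 2.40 at 48 h. Replicate 2 at 24 h thus had the largest GAPDH gap of the 6 arrays and the smallest actin gap.

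No probe set passed the test of 48 h against 24 h. In limma, with Benjamini-Hochberg adjustment over all 31042 probe sets, 0 reached an adjusted p of 0.05 (0% called), 720 (2.32%) had an unadjusted p under 0.05, and the smallest adjusted p was 1. The model takes its spread from all 24 liver arrays, which include 2 compressed arrays of other groups. Without those 2, 2218 probe sets (7.15%) had an unadjusted p under 0.05, and with the 6 compared arrays alone 1626 (5.24%), and 0 passed the adjusted test in limma in either. The median standard error (SE) of a log2 change was 0.27, so the median 95% interval reached 0.56 to either side, a 1.47-fold change. A probe set of median SE would have needed a log2 change of 1.75 to be called alone. All single-gene differences below are therefore values that failed the correction, given as 48 h minus 24 h on the log2 scale, with the model's SE or 95% interval for the main ones. The adjusted p of each gene named was 1. As a second description, genes are counted whose 3 arrays at 48 h all lay above, or all below, the 3 at 24 h. Of the 14217 genes, 1159 were higher without overlap (8.15%) and 765 lower without overlap (5.38%), and 43.6% had a log2 change below 0. Quantile normalization of the arrays a second time turned this split to 784 higher and 948 lower.

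The mitosis genes stood lower at 48 h as a group. Of 30 genes listed, 29 were measured and 28 had a log2 change below 0. Without overlap, 20 of the 29 were lower, against 5.38% of all genes, and 0 were higher. The median of the list was -0.61, against 0.04 over all genes. At an unadjusted p under 0.05, 13 members were lower, against 0.964% of all genes, and 0 members passed the adjusted test. The mean of the list was 8.04, 8.09 and 7.87 on the 24 h arrays and 7.55, 7.49 and 7.04 on the 48 h arrays. All 3 arrays at 48 h thus lay below all 3 at 24 h, with replicate 3 lowest. Without replicate 2 at 24 h, the array that stood apart, the median was -0.61 and 22 of 29 were lower without overlap, against 9.81% of all genes in that setting. The list was chosen with earlier results of these data known, and its members share the same 6 arrays.

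The promoters of 4 of these genes are shown. They are Ect2, Bub1b and Cenpf, the list's members among the 15 falls with the smallest p, and Ccnb2, its lowest member. Promoters of many G2 and M phase genes carry CCAAT boxes, which NF-Y binds, and a cell cycle genes homology region (CHR), which MuvB complexes bind. Each sequence runs 5' to 3' on the gene's strand, from 170 bases before to 30 bases after the RefSeq start on assembly GRCr8. Capitals mark CCAAT and the CHR letters TTTGAA or TTCGAA, on either strand.
Ect2, chr2:111966597-111966796, GRCr8, minus strand: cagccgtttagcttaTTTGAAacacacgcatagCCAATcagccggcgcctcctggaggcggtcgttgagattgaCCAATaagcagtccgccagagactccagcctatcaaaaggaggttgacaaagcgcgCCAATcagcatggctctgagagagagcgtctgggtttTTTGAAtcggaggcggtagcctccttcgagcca
Ccnb2, chr8:79981629-79981828, GRCr8, minus strand: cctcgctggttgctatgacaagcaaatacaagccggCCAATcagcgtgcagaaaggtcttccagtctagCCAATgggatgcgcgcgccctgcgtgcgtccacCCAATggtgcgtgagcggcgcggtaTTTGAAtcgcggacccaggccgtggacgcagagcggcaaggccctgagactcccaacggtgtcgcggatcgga
Cenpf, chr13:103760857-103761056, GRCr8, minus strand: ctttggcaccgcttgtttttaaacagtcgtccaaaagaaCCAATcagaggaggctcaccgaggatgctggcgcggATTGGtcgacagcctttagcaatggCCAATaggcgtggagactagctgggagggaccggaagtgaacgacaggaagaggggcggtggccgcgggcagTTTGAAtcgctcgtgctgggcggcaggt
Bub1b, chr3:126016897-126017096, GRCr8, plus strand: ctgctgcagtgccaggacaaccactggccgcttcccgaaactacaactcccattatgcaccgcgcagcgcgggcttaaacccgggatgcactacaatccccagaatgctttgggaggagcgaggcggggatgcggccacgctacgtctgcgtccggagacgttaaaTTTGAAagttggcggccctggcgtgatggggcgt

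In these windows Ect2 held 2 CHR matches and 3 CCAAT boxes, Ccnb2 and Cenpf held 1 and 3 each, and Bub1b held 1 CHR match and 0 CCAAT boxes. In each of them a TTTGAA lay near the start of the gene. Promoter sequence was matched by symbol for 25 of the 29 mitosis genes, with the first start listed for a gene and all 300 bases given. A CHR match was present in 18 of the 25 (72%), against 19.5% of 27457 promoters of all genes, and a CCAAT box in 21 (84%), against 37.7%. Both were present in 17 (68%), against 7.83% of all. A match shows the letters in the window, not a bound site. The list was made of known mitosis genes, so these shares would be the same whatever the arrays showed. They say nothing on the difference between 48 h and 24 h.

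The cyclins were among the members with large differences, and the kinase they activate stood at the list's median. Ccnb2, cyclin B2, read 9.35, 9.48 and 9.34 at 24 h and 8.76, 8.48 and 7.79 at 48 h. The groups did not overlap, and the difference was -1.05 (SE 0.41), a 2.06-fold lower level. Ccnb1, cyclin B1, read 8.40, 8.85 and 8.04 at 24 h and 8.13, 7.53 and 6.81 at 48 h. Here replicate 1 at 48 h lay above replicate 3 at 24 h, and the difference was -0.94 (SE 0.42). Ccna2, cyclin A2, was lower by 0.86 in its mean and its groups overlapped slightly. For Cdk1, the kinase that cyclin B activates to start mitosis, the 24 h arrays read 8.81, 8.14 and 8.49, and the 48 h arrays lay close together at 7.94, 7.85 and 7.82, a difference of -0.61 (SE 0.38). Cks2, a small Cdk-binding protein, was the only member with a positive value, 0.03, which turned to -0.10 after quantile normalization a second time.

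Genes of the spindle and of its checkpoint followed. Bub1b, which encodes the checkpoint kinase BubR1, read 6.41, 6.89 and 6.44 at 24 h and 5.28, 6.35 and 5.66 at 48 h. The closest arrays of the groups nearly touched, and the difference was -0.82 (SE 0.26). Bub1, its partner kinase, differed by -0.77, and Ttk, the kinase Mps1 at the head of the checkpoint, by -0.73, both without overlap. The other Ttk probe set stood at -0.34 with overlapping arrays. Cdc20, the activator of the anaphase-promoting complex that the checkpoint holds back, read 8.96, 9.41 and 8.73 at 24 h and 8.32, 8.16 and 7.55 at 48 h, a difference of -1.02 (SE 0.50). Cenpf, an outer kinetochore protein, was lower by 0.71 in its mean (SE 0.25) and Plk1, a mitotic kinase, by 0.45. The Aurora kinase genes stood at -0.53 for Aurka, whose groups overlapped, and -0.46 for Aurkb, whose groups did not.

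Cytokinesis genes held the smallest p-value of the list. Ect2, the exchange factor that activates RhoA at the cleavage furrow, read 8.75, 9.40 and 8.81 at 24 h and 8.08, 8.30 and 7.46 at 48 h. No arrays overlapped, and the difference was -1.04 (95% interval -1.71 to -0.38), a 2.06-fold lower level. Racgap1, a subunit of the centralspindlin complex, read 8.37, 8.24 and 7.82 against 7.40, 7.53 and 7.22, a difference of -0.76. The other Racgap1 probe set stood at -0.10 with overlapping arrays. Kif20a, a motor of the late spindle, stood at 9.11, 9.17 and 9.05 against 8.62, 8.46 and 7.91, without overlap. Mki67, the gene of the proliferation antigen Ki-67, read 8.85, 8.26 and 9.04 at 24 h and 7.96, 7.95 and 7.38 at 48 h, a difference of -0.95 (SE 0.34). Cdkn3, a phosphatase of Cdk1 and Cdk2, differed by -0.98, and Birc5 (survivin) by -0.50. Top2a, the topoisomerase that untangles sister chromatids, differed by -0.53 with overlapping arrays, and by 0.08 on its other probe set.

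**Figure D1:**
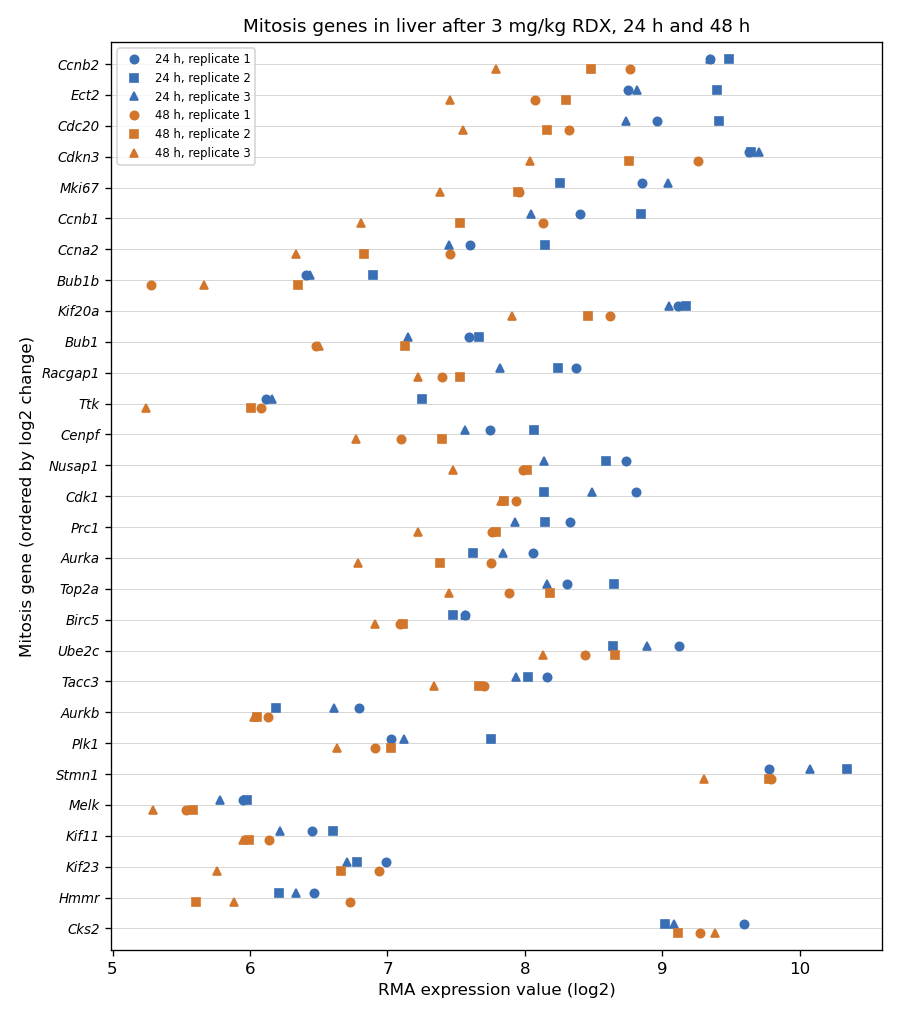
RMA log2 value of each of the 29 measured mitosis genes on the 3 arrays at 24 h (blue) and the 3 at 48 h (orange) after 3 mg/kg, with genes in the order of their log2 change and a marker shape for each replicate number. In 20 genes every 48 h point lies to the left of every 24 h point, and replicate 3 at 48 h, the triangle, is often the lowest.

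Of the 15 named lower genes with the smallest p, Ect2, Bub1b and Cenpf were on the list, and Fam83d, Kif22, Knstrn, Cdca3, Shcbp1 and Sgo1, which also act in mitosis, were not. Fam83d, a spindle protein, read 6.27, 6.55 and 5.85 at 24 h and 5.27, 5.43 and 5.44 at 48 h, a difference of -0.84 (SE 0.23). Kif22, a chromosome-bound kinesin, differed by -1.02, Knstrn, a kinetochore and spindle protein, by -1.08, and Cdca3, a trigger of mitotic entry, by -0.91. Shcbp1 stood at -0.79 and Sgo1, which protects sister chromatid cohesion, at -0.75. None of these 6 overlapped between the groups, though the other probe set of Knstrn stood at -0.28 with overlapping arrays. The rest of the 15 were Mir23b, Tff3, Rsph6a, Tor1aip1, Orc1 and Prss27. Tff3 differed by -1.24, more than any of the mitosis genes named here, but its arrays overlapped, as did those of Prss27.

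DNA replication genes had no shared direction after 3 mg/kg. Of 24 measured, 10 had values above 0 and 14 below, 3 were lower without overlap and 1 higher, against 5.38% and 8.15% of all genes, and the list's median was -0.04. Mcm4, a subunit of the replicative helicase, read 7.18, 6.92 and 7.43 at 24 h and 7.67, 7.70 and 7.97 at 48 h, higher without overlap by 0.60. Its partner Mcm2 was higher by 0.51 in its mean with overlapping arrays, and Pcna, the sliding clamp, by 0.23. Orc1, of the origin recognition complex, was the lowest member at -0.64, at values between 3.81 and 5.05. Among 17 measured p53 targets and cyclin-dependent kinase inhibitors, 9 lay above 0 and 8 below, with a median of 0.07. A CHR match was present in 4 of 21 replication gene promoters (19%), near the share in all promoters, and a CCAAT box in 13 (61.9%), above it.

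The 18 mg/kg arm has arrays of its own, so it can be set beside these values. There 28 of the 29 mitosis genes were also below 0 from 24 h to 48 h, 17 of them without overlap, against 5.56% of all genes, and the median was -0.72. Over all genes, 51.2% lay below 0 in that arm and the median was -0.01. The DNA replication genes were mostly lower there too. In that arm 21 of 24 lay below 0, with a median of -0.27, and 3 were lower without overlap. Ect2 read 6.90, 7.20 and 6.87 at 24 h and 5.57, 4.99 and 5.73 at 48 h after 18 mg/kg, a difference of -1.56. The difference between the doses in this change was 0.52 for Ect2 (95% interval -0.43 to 1.46), and 0 of the 29 members passed the test of the dose difference. The lists started from different levels. The mitosis list averaged 8.0 ± 0.12 (SD, n = 3) at 24 h and 7.36 ± 0.28 at 48 h after 3 mg/kg, and 6.54 ± 0.34 and 5.84 ± 0.28 after 18 mg/kg. At 0 h it averaged 7.41 ± 0.57 in the 3 mg/kg arm and 7.55 ± 0.24 in the other, and at 4 h 6.85 ± 0.08 and 7.05 ± 0.22. The 24 h group after 3 mg/kg thus had the highest mean of the 8 liver groups, though 1 array at 0 h, at 8.07, lay within its range. Of these groups, 2 hold a compressed array (replicate 2 of 3 mg/kg, 0 h, and replicate 1 of 18 mg/kg, 4 h). The SDs over all their log2 values were 1.49 and 1.38, and their list means were 7.13 and 7.10. In cortex after 3 mg/kg the list's median was -0.03, with 15 of 29 members below 0.

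**Figure D2:**
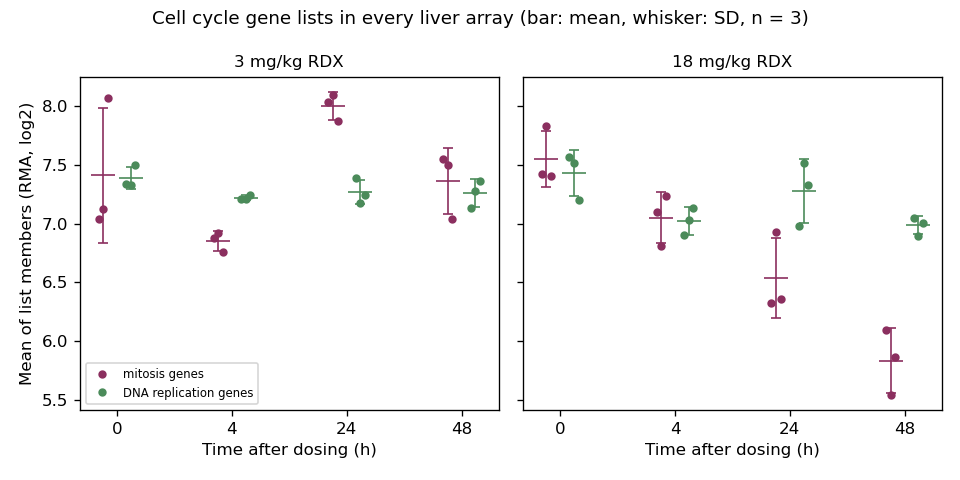
Mean log2 value of the 29 mitosis genes (purple) and the 24 DNA replication genes (green) on each liver array, by time and dose, with bars for the group mean and whiskers for the SD (n = 3). The mitosis points at 48 h lie below those at 24 h at both doses, and the replication points overlap between these times after 3 mg/kg.

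Genes with higher values at 48 h were of mixed function, and 179 genes (1.26%) were higher at an unadjusted p under 0.05. Kitlg, stem cell factor, the ligand of the Kit receptor, had the smallest p among them, on the brightest of its 4 probe sets. The others stood at -0.03, -0.55 and -0.30, so the values of Kitlg hold for that probe set alone. It read 5.53, 5.59 and 5.49 at 24 h and 6.09, 6.35 and 6.32 at 48 h, a difference of 0.71 (95% interval 0.33 to 1.10). Abcb1a, the P-glycoprotein drug efflux pump, read 6.78, 6.78 and 6.69 at 24 h and 7.94, 7.67 and 7.95 at 48 h, a difference of 1.10 (95% interval 0.49 to 1.71), or 2.15-fold. On these probe sets both genes had tight groups that lay well apart. P2ry1, a purinergic receptor, differed by 0.91, Eln (elastin) by 0.76 and Impa2, an inositol monophosphatase, by 0.98, each without overlap. The other probe sets of Abcb1a and Eln stood at 0.48 each, with overlapping arrays.

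Among the other higher genes, Cds1, which makes CDP-diacylglycerol for phospholipid synthesis, read 6.85, 7.13 and 7.01 at 24 h and 8.02, 7.95 and 8.37 at 48 h, a difference of 1.12 (SE 0.34). Cidea, a lipid droplet protein, read 7.56, 7.30 and 6.97 against 8.72, 8.38 and 8.71, a difference of 1.33 (SE 0.43). Abcg5, a partner in the sterol exporter of the canalicular membrane, read 7.52, 7.17 and 6.43 at 24 h and 8.34, 8.58 and 8.59 at 48 h, a difference of 1.46 (SE 0.52). The 48 h arrays of these 3 genes were close together and all above the 24 h arrays. Abcg8, the other partner, was higher by 0.70 in its mean with overlapping arrays (SE 0.51). Irs2, an adaptor of the insulin receptor, read 6.17, 6.25 and 6.60 against 7.28, 6.89 and 7.08, a difference of 0.74.

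Some of these genes went the other way after 18 mg/kg, and the difference between doses was tested. Across all probe sets it passed for 0 in limma (0% called, 747 or 2.41% at an unadjusted p under 0.05), and the smallest adjusted p was 0.419. Kitlg differed by 0.71 after 3 mg/kg and by -0.33 after 18 mg/kg, a difference between the doses of 1.04 (95% interval 0.50 to 1.58). For Abcb1a the values were 1.10 and -0.43, and for Irs2 0.74 and -0.74. At 24 h these 3 genes stood higher on all 18 mg/kg arrays than on all 3 mg/kg arrays, as Abcb1a shows with 7.77, 8.39 and 7.90 against values of at most 6.78. Fasn, fatty acid synthase, read 11.98, 12.04 and 11.82 at 24 h and 11.55, 11.72 and 11.67 at 48 h after 3 mg/kg, a difference of -0.30. After 18 mg/kg it read 10.91, 11.23 and 10.51 and then 11.96, 11.99 and 12.44, a difference of 1.24, so the doses differed by -1.54 (95% interval -2.25 to -0.84). The other Fasn probe set stood at -0.009 after 3 mg/kg, with overlapping arrays. Mt1, a metallothionein, differed by -0.92 after 3 mg/kg, where replicate 2 at 24 h alone was high at 10.12, and by 1.73 after 18 mg/kg. Without that array the first value was -0.36.

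The fatty acid synthesis list showed no shared direction after 3 mg/kg, and 0 of its members passed the test of the dose difference. After 3 mg/kg, 10 of its 19 members lay above 0 and 9 below, and the median was 0.03. Without overlap 3 were lower and 1 higher, against 5.38% and 8.15% of all genes. The median turned to -0.05, with 15 members below 0, after quantile normalization a second time. After 18 mg/kg, 18 of the 19 lay above 0, 8 were higher without overlap against 4.07% of all genes, and the median was 0.55. Acly, ATP citrate lyase, differed by -0.20 and 0.72 at the 2 doses, and Pnpla3, a lipid droplet hydrolase controlled by the same factors, by -0.74 and 2.14. The dose difference of Pnpla3, -2.87 (95% interval -4.13 to -1.62), had an adjusted p of 0.71 in limma, as had that of Fasn. Without replicate 1 of the 48 h group after 18 mg/kg it was the 1 gene called in that test. Fat oxidation and other targets of PPAR alpha, the fasting-activated receptor, lay mostly above 0 after 3 mg/kg and below it after 18 mg/kg. The dose difference passed its test for 0 of them. Of 25 measured, 20 lay above 0 after 3 mg/kg, with a median of 0.21, and 6 after 18 mg/kg, with a median of -0.24. Over all 14217 genes, 8013 lay above 0 after 3 mg/kg and 6942 after 18 mg/kg. Cd36, a fatty acid transporter, read 5.88, 5.66 and 5.72 at 24 h and 6.31, 6.02 and 7.30 at 48 h after 3 mg/kg, with replicate 3 highest. Its difference was 0.79, against -0.79 after 18 mg/kg. Vnn1, a pantetheinase under PPAR alpha control, stood at 0.72 and -1.48.

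**Figure D3:**
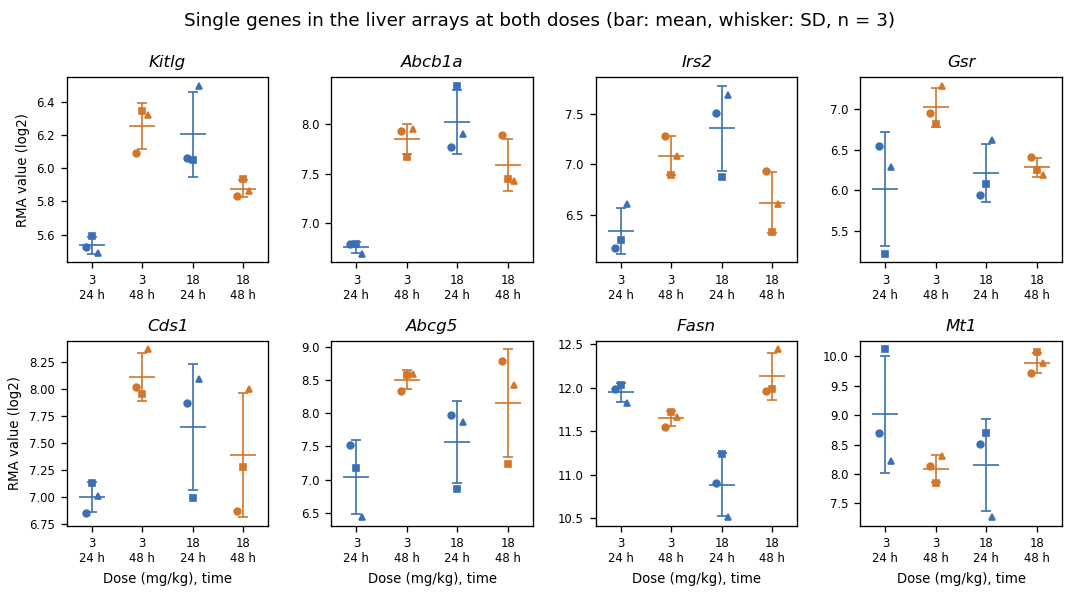
RMA log2 values of Kitlg, Abcb1a, Irs2, Gsr, Cds1, Abcg5, Fasn and Mt1 on the liver arrays at 24 h (blue) and 48 h (orange) after 3 and 18 mg/kg, with a bar for the mean, whiskers for the SD (n = 3) and a marker shape for each replicate number. The axes differ between genes and do not start at 0. On the probe set shown for each, the first 6 genes are higher at 48 h without overlap after 3 mg/kg. Fasn, on the probe set shown, is lower at 48 h after 3 mg/kg and higher after 18 mg/kg.

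Drug metabolism genes were mostly bright at both times, with small positive values in the main. Of 25 measured CYP2 and CYP3 genes and their regulators, 21 lay above 0 and 7 were higher without overlap, against 8.15% of all genes, with a median of 0.15. Cyp2c11, the main male-specific P450 of rat liver, read 13.30, 13.27 and 13.41 at 24 h and 13.44, 13.46 and 13.51 at 48 h, a difference of 0.14. The largest value was that of Nr1i3, the receptor CAR that induces these enzymes. It read 6.76, 7.08 and 7.71 against 8.01, 8.68 and 8.81, a difference of 1.32 (SE 0.65). Por, the reductase that feeds electrons to P450 enzymes, differed by 0.36 and Cyp3a18 by 0.51, both without overlap. Among 29 conjugation genes, 8 were higher and 2 lower without overlap, against 8.15% and 5.38% of all genes, and the median was 0.15. Gstm2, a glutathione transferase, read 9.04, 8.84 and 9.55 against 10.35, 9.68 and 10.26, a difference of 0.95 (SE 0.73).

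Targets of NRF2, the factor of the antioxidant response, had a median of 0.22, with 16 of 21 above 0. Without overlap 6 were higher and 1 lower, against 8.15% and 5.38% of all genes. Gsr, glutathione reductase, read 6.54, 5.23 and 6.28 at 24 h and 6.95, 6.81 and 7.28 at 48 h, a difference of 1.0 (95% interval 0.38 to 1.61), with the low replicate 2 at 24 h adding to its size. Without that array it was 0.60. Gclm, the modifier subunit of glutathione synthesis, differed by 0.42 and Srxn1 (sulfiredoxin) by 0.55, both without overlap, but 1 of the 3 Srxn1 probe sets alone was positive. Nqo1 and Hmox1, the usual reporters of the pathway, overlapped between the times, at 10.52 to 10.93 and 8.93 to 9.26 over the 6 arrays. Oxidative phosphorylation subunits, which are among the brightest transcripts, had 10 of 30 members higher without overlap, against 8.15% of all genes, and a median of 0.13. After quantile normalization a second time these were 3 of 30, against 5.51%, and 0.05, with 3 lower, and the PPAR alpha list had 2 of 25 in place of 8.

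**Figure D4:**
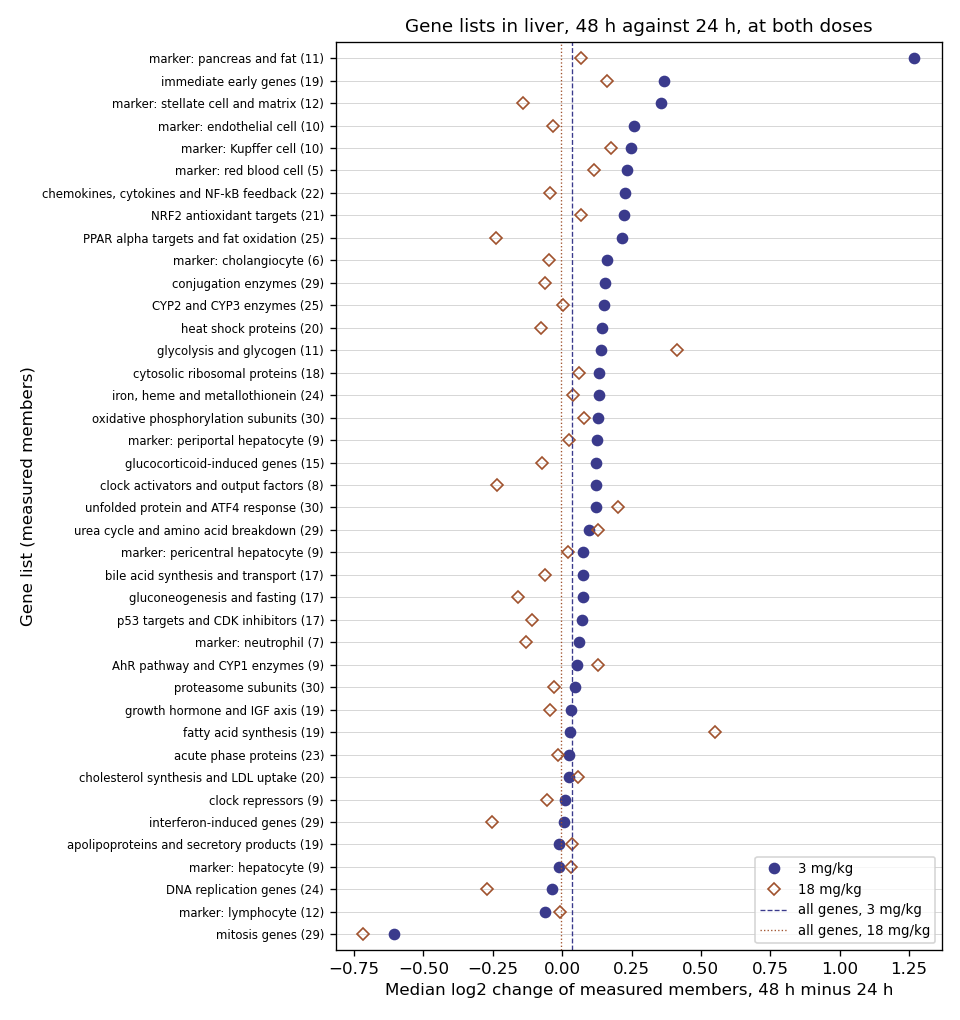
Median log2 change at 48 h against 24 h of the measured members of each gene list in liver after 3 mg/kg (filled circles) and 18 mg/kg (open diamonds), with the number of measured members in brackets and lines for the median over all 14217 genes. The mitosis list is the lowest at both doses, at -0.61 and -0.72, and the pancreas and fat list is the highest after 3 mg/kg, at 1.27, from 1 array.

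Pancreatic enzyme genes were high on 1 array. Prss1, trypsinogen, read 5.06, 6.26 and 5.51 at 24 h and 5.91, 10.32 and 5.36 at 48 h. Replicate 2 at 48 h was thus far above the other 5 arrays, and the same array was highest for Cela2a (10.39), Pnlip (10.03), Amy2a3 (9.84), Cpa1 (9.41), Cpb1 (9.48) and Cela1 (10.13). These genes encode pancreatic elastases, lipase, amylase and carboxypeptidases. Cpb1 was also higher at 48 h without overlap, and Cela1 averaged 9.20 over all 24 liver arrays. Under the alternatives, leaving that array out included, the changes of Cpb1, Cela1 and Amy2a3 stayed at or above 0.585, 0.507 and 0.495. The mean of the 11 pancreas and fat markers was 8.66 on that array and between 6.02 and 6.30 on the other 5. The median of the list was 1.27 with this array and -0.03 without it. The fat markers Adipoq, Lep, Cfd and Plin1 did not share the size of this gap. On that array they read 5.20, 5.41, 9.55 and 5.46, against 4.22 to 5.54, 5.03 to 5.30, 8.89 to 9.46 and 5.22 to 5.68 on the other 5. For the mitosis list, the values without this array were a median of -0.70 and 22 of 29 members lower without overlap, against 10.8% of all genes in that setting.

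**Figure D5:**
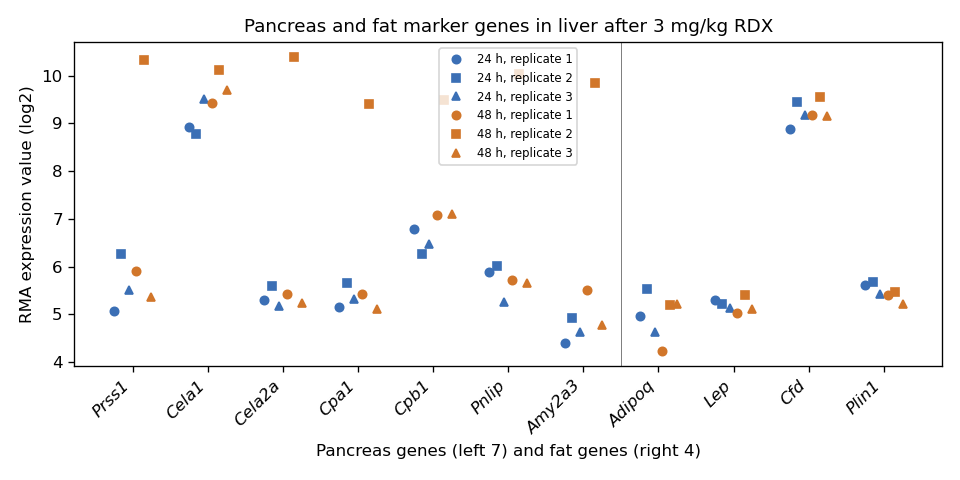
RMA log2 values of 7 pancreatic enzyme genes (left of the line) and 4 fat genes (right) on the 6 liver arrays after 3 mg/kg, 24 h in blue and 48 h in orange, with a marker shape for each replicate number. The orange square, replicate 2 at 48 h, lies between 9.41 and 10.39 for all 7 pancreatic genes.

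Markers of Kupffer and endothelial cells were slightly higher in most members at 48 h, and those of lymphocytes were not. All 10 measured Kupffer cell markers lay above 0, 5 of them without overlap, against 8.15% of all genes, with a median of 0.25. C1qa, a complement component made by macrophages, read 10.45, 10.82 and 10.69 against 11.002, 11.08 and 11.03, and Csf1r, the receptor for the macrophage growth factor, differed by 0.43. Of 10 endothelial markers 9 lay above 0 and 5 did not overlap, with a median of 0.26. Tie1, an endothelial receptor kinase, read 7.65, 7.26 and 7.81 against 8.29, 8.04 and 8.53, a difference of 0.72. Stellate cell and matrix genes had a median of 0.36, and 1 of 12, Des (desmin), did not overlap. Their values were low on replicate 2 at 24 h, where Col1a2 read 7.70 against 9.44 and 8.95 on its partners. Without that array the list's median was 0.13. Lum, the matrix proteoglycan lumican, was instead high on 2 of 3 arrays at 48 h, with 5.56, 6.98 and 8.66 against 5.35, 5.51 and 5.93. Hepatocyte markers had a median of -0.01, lymphocyte markers -0.06, cholangiocyte markers 0.16 and neutrophil markers 0.06. Quantile normalization a second time lowered the Kupffer and endothelial medians to 0.15 each, and left 2 of 10 markers without overlap in each list, against 5.51% of all genes. The part of these cell types in the other results was not tested.

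Of 19 measured immediate early genes, 14 lay above 0 and 5 were higher without overlap, against 8.15% of all genes, with a median of 0.37. After quantile normalization a second time 3 were higher and 1 lower without overlap, against 5.51% and 6.67% of all genes. Myc, a transcription factor of growth, read 6.68, 5.97 and 7.02 at 24 h and 6.81, 8.44 and 8.54 at 48 h, so replicate 1 lay among the 24 h arrays and replicates 2 and 3 well above them. Ier3 read 8.55, 9.83 and 9.93 at 48 h against 7.95 to 8.80 at 24 h. Klf4 and Klf6, Krüppel-like factors, were higher without overlap by 0.87 and 0.67. Other genes, noted after their values were seen, divided the 48 h arrays as Myc did. Cish, a target of STAT5, read 6.96 on replicate 1 and 8.84 and 9.30 on replicates 2 and 3, against 6.52 to 7.02 at 24 h. Gadd45a, a stress-induced growth inhibitor, read 6.75, 7.96 and 8.12.

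The circadian clock repressors showed no shared direction, and some divided the 48 h arrays in the same way. Nr1d1, the clock repressor REV-ERB alpha, read 6.91, 7.45 and 6.98 at 24 h and 7.0, 5.56 and 5.61 at 48 h. Replicate 1 thus matched the 24 h arrays, and the difference of -1.05 (SE 0.50) came from the other two. Nr1d2, its paralog, read 9.17, 7.79 and 8.20 at 48 h against 8.82 to 9.00 at 24 h. Per2, a period gene, read 8.85, 6.83 and 7.82 at 24 h and 7.61, 8.92 and 8.69 at 48 h. Clock repressors as a list had 5 of 9 members above 0 and a median of 0.01. Of 8 clock activators and output factors, 6 lay above 0 and 2 were higher without overlap, against 8.15% of all genes. Their median was 0.12, and -0.23 after 18 mg/kg. After quantile normalization a second time 1 was higher and 1 lower without overlap, against 5.51% and 6.67% of all genes. Bmal1, a clock activator, differed by 0.72 (SE 0.58), and the closest arrays of its groups nearly touched. Cry2, a cryptochrome, was higher without overlap by 0.52, as was Hlf, a clock output factor, by 0.33. For Cry2 and Cish 1 of 2 probe sets, and for Hlf 1 of 4, had the opposite sign. Whether the arrays were taken at different clock hours was not tested.

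Lists that differed little were those of the liver's main products. Apolipoproteins and other secreted products ranged from -0.05 to 0.18, with a median of -0.01 and 0 of 19 without overlap. Acute phase proteins had a median of 0.02, interferon-induced genes 0.01 and cholesterol synthesis 0.02. Cyp7a1, the rate-limiting enzyme of bile acid synthesis, read 11.06, 11.03 and 10.72 at 24 h and 10.30, 11.48 and 10.33 at 48 h, with replicate 2 above all others. Of the cytosolic ribosomal proteins, 16 of 18 lay above 0, with a median of 0.13. Without overlap 0 of them were higher, against 8.15% of all genes, and 0 were lower. Among the proteasome subunits, 20 of 30 lay above 0, with a median of 0.05. Of these subunits 0 were higher without overlap and 1 lower, against 8.15% and 5.38% of all genes.

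The change was also set against that in brain cortex of rats given the same dose. For 0 probe sets did the change differ between the tissues in limma (0% called, 491 or 1.58% at an unadjusted p under 0.05), with the smallest adjusted p at 1. The mitosis genes with the largest differences in liver stood near 0 in cortex, where Ect2 differed by -0.04 and Ccnb2 by 0.03. Abcb1a differed by 0.55 in cortex and 1.10 in liver.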

How the data were processed

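RNA from rat liver and cortex was hybridised to Affymetrix whole-genome rat arrays. The authors deposited log2 values; per the submitters' processing notes RMA and Partek were used, with versions and settings not given in the sources used here. RMA as commonly run evens out the arrays' distributions and so reduces shared shifts, but the deposited liver arrays still differed in spread (SD 1.38 to 2.08). The number of arrays limits precision. Of 31099 probe sets, 57 controls were left out and 31042 tested without a filter. The platform annotation gave 1 symbol for 20826, several for 436 and none for 9780.

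limma 3.58.1 (R 4.3.3; lmFit, eBayes, tested on simulated data) was fitted to all 24 liver arrays with a mean for each of 8 groups, and to all 48 arrays for the tissue comparison. Tests were two-sided with Benjamini-Hochberg adjustment and a threshold of 0.05. Each gene was read from 1 probe set, the brightest in liver of those carrying that symbol alone. Named genes were the 15 higher and 15 lower with the smallest p, the member of each list with the smallest p, and fixed genes; others, list members included, were chosen after their values were seen. Members and lists were chosen with earlier results of these data known. Lists got counts and medians, not tests. Alternatives covered scaling, filters, arrays left out, weights and covariates. Promoters came from RefSeq tables of GRCr8.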

Additional observations from a re-analysis of the deposited data

How the results depend on the processing

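The count of probe sets called at 48 h against 24 h after 3 mg/kg was 0 under all 17 alternatives, with 261 to 2367 at an unadjusted limma p under 0.05. The counts of 0 for the dose and tissue differences held under the alternatives run, with 4 exceptions. With array weights, 19 probe sets were called for the dose difference and 5 for the tissue difference. Without the 4 liver arrays whose SD lay under 1.9, chosen after seeing the data, 2 were called for the dose difference, in Pnpla3 and Angptl8. Leaving out single arrays gave 0 to 1 for the dose difference, and 0 in the other comparisons. With the replicate number as a block, as a paired analysis would have it, all 3 counts were 0, and same-numbered arrays of the groups did not deviate together (correlations -0.20, 0.09 and 0.03). Of 80 named genes followed through the alternatives run for them, 76 kept the sign of their change at 3 mg/kg. The others were Cks2, Cela2a, Cpa1 and Pnlip. Cks2 read -0.10 after quantile normalization a second time, -0.015 with the actin gap as a covariate and -0.081 without the arrays of low spread, and from -0.081 to 0.21 with single arrays left out. With single arrays left out, Cela2a ran from -0.029 to 2.55, Cpa1 from -0.11 to 2.04 and Pnlip from -0.032 to 2.16, each lowest without replicate 2 at 48 h. The median of the mitosis list ran from -0.70 to -0.47 with single arrays left out, lowest without replicate 2 and highest without replicate 3 at 48 h. Apart from Cela2a, Cpa1 and Pnlip, whose high values come from replicate 2 at 48 h, the cause of these shifts was not tested.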
